A study of Mus musculus with 6 samples.

Results

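The genes described here build and run the vesicle traffic between the endoplasmic reticulum (ER) and the Golgi apparatus in bone marrow long-lived plasma cells. They were chosen by name, from a list of 47 symbols of the COPII and COPI coats, their GTPases, the cargo receptors, the p24 proteins, the KDEL receptors and the tethers. Of 13642 genes in the deposited table, 46 were such members. The symbol Sec12 had no row of its own, since in mouse the Sec12 protein is encoded by Preb, which was present. The members lie on autosomes in the GENCODE M21 annotation.

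RNA was sequenced from plasma cells sorted out of the bone marrow of old and young C57BL/6J mice, with 3 libraries per age. The old mice were males of 17 to 19 months from the colony of the National Institute on Aging. The young mice were females of 2 to 3 months obtained from Jackson or from the animal facility of UCLA, so age, sex and supplier cannot be told apart. The labels name no transgene or treatment in either group. The sort kept cells with high CD138 and removed those with B220, IgD, CD11b, Gr-1 or a T cell receptor of the alpha-beta or gamma-delta type. The design text speaks of independent groups of mice and gives no number of mice per library. P-values therefore describe the spread between libraries, part of which may be technical.

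A plasma cell secretes antibody at a very high rate, and every antibody leaves the ER in a COPII vesicle. At ER exit sites the GTPase SAR1 is loaded by SEC12 and recruits the inner coat of SEC23 and SEC24, which picks the cargo, and then the outer coat of SEC13 and SEC31. COPI vesicles run the other way: ARF1, loaded by GBF1, recruits coatomer, and the vesicles bring escaped ER proteins, receptors and SNAREs back. XBP1, the transcription factor that sets up the secretory programme of plasma cells, is known to induce many of these genes under ER stress.

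The promoters of some members hold a letter pattern linked to XBP1. The unfolded protein response element (UPRE) TGACGTGG, known as a site of XBP1 and ATF6, was searched on both strands from 250 bases before to 50 bases after each RefSeq start (GRCm38.p6). Of the 41 members with a promoter in that table, 7 held it, or 17.1%, beside 1.12% of 8304 genes that were tested and had a promoter, members included, and 0.714% of all 27025 genes with one. The 30 bases around each match are printed in the sense of the gene, with the element in capitals, spelled CCACGTCA where it runs in reverse.
Sec24d: gcccgggcgccTGACGTGGcactagcaacc
Sec23a: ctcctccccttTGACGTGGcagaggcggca
Arf1: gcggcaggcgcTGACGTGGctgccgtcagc
Gbf1: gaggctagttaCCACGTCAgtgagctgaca
Copb1: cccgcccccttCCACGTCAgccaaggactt
Copb2: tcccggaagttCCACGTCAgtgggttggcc
Kdelr3: tggccgccccgCCACGTCAccgcgcggcca

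These matches belong to the inner COPII coat genes Sec24d (chr3:123267459-123267488, plus strand) and Sec23a (chr12:59011993-59012022, minus strand). Further matches belong to Arf1 (chr11:59228228-59228257, minus strand), to its exchange factor gene Gbf1 (chr19:46152535-46152564, plus strand) and to Kdelr3 (chr15:79516367-79516396, plus strand). Copb1 (chr7:114254690-114254719, minus strand) and Copb2 (chr9:98563713-98563742, plus strand) encode the beta and beta-prime subunits of coatomer. In Sec24d, Copb1, Kdelr3 and Gbf1 the last base of the element lay between positions -23 and -5 from the start, in Copb2 it ran across the start, and in Sec23a it lay 7 to 14 bases into the transcript. Arf1 has 2 RefSeq starts, and the same element lay 22 to 29 bases into the transcript from one and at -84 to -77 from the other. The ER stress element, CCAAT and CCACG with 9 bases between them, was in 0 of 41 member promoters and 0.169% of tested genes. Its shorter form, ATTGG and CCACG with 1 base between them, was in 0 and 0.0843%. The cyclic AMP element TGACGTCA was in the promoter of Cope, 2.44% of members beside 3.67% of tested genes. CCACG, which the UPRE contains in reverse, was in 73.2% of member promoters and 52.2% of tested genes, and CCAAT was in 43.9% and 43.3%. A match describes letters and not binding.

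By their median the transport genes were abundant in every library. Kdelr3, Tmed4 and Tmed7 each fell below 1 FPKM in at least 1 library. Values are FPKM as deposited, fragments scaled to gene length and library size, so levels of different genes can be set side by side per length. By their mean over the 6 libraries, 26 of the 46 members were in the top 10% of the table, and the median member stood at the 91.5th percentile. The median member was at 47.8, 43.6 and 30.4 FPKM in old replicates 1 to 3 and at 44.1, 42.2 and 35.8 FPKM in young replicates 1 to 3, where the median gene of the table was at 2.16 to 6.55 FPKM. Tmed2, a p24 cargo adaptor gene, led with a mean of 449 FPKM over the 6 libraries, followed by Arf1 at 218, Tmed10 at 148, the tether gene Uso1 at 132 and Tmed9 and Lman1 at 116 each. The lowest means were those of Tmed5 at 9.10, Copg2 at 10.96, Tmed7 at 12.53, Sec24b at 12.55 and Sec23ip at 15.7. Among the 6 leading genes the libraries of neighbours in this order overlapped, apart from Tmed2, whose lowest library, at 341 FPKM, was above the highest library of Arf1, at 325 FPKM.

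**Figure D1:**
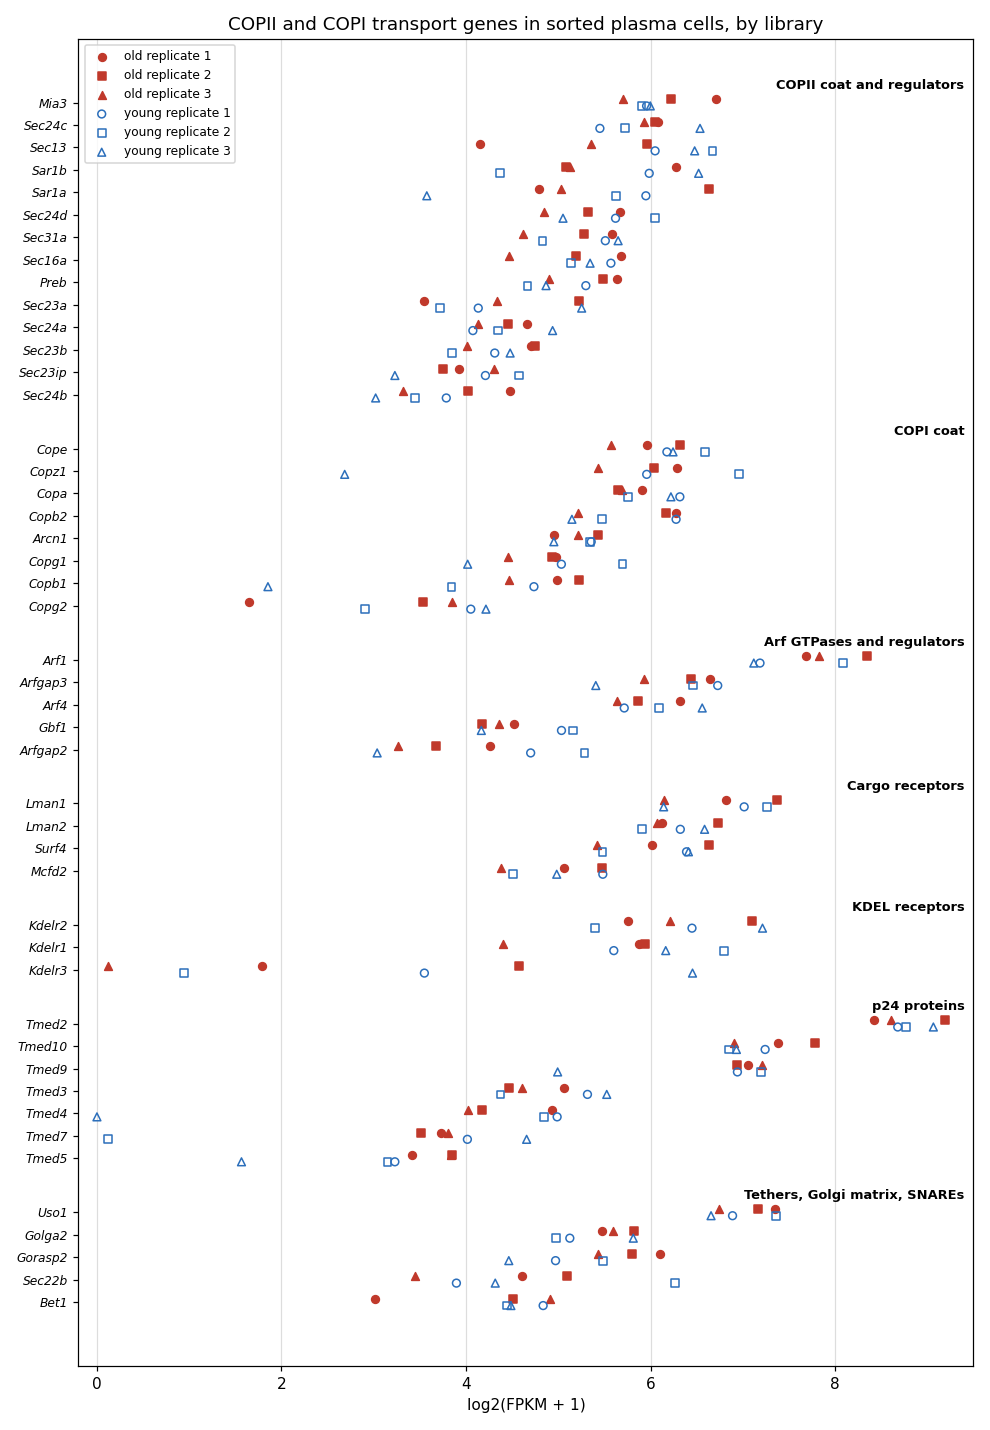
Log2(FPKM + 1) of the 46 transport genes, one row per gene grouped by role, with 3 old libraries (filled) and 3 young libraries (open). The groups overlap for 44 genes, and the points of Kdelr3, Tmed4, Tmed7, Copz1 and Copb1 are the most scattered.

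The share of the summed FPKM that the 46 genes took differed less between ages than between libraries of one age. It was 0.927%, 1.06% and 0.746% in old replicates 1 to 3 and 0.928%, 0.952% and 0.869% in young replicates 1 to 3. Old libraries averaged 0.910% ± 0.157 and young libraries 0.916% ± 0.0428 (SD, n = 3 each). Old replicate 3 was the lowest of the 6 libraries and old replicate 2 the highest. The p24 genes had the largest part, 0.261% ± 0.0398 in old and 0.248% ± 0.00853 in young libraries, and COPII coat genes followed at 0.170% ± 0.0346 in old and 0.180% ± 0.0140 in young libraries (SD, n = 3 each).

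The comparison of old with young libraries asked which transcripts differ between plasma cells of the 2 ages, and limma called 0 of the 46 transport genes at an adjusted p under 0.05, with 0% of all 10687 tested genes called. At an unadjusted p under 0.05 limma found 1 member, Sec13, or 2.174%, beside 5.91% of all genes tested. Sec13 was lower in old libraries, and 1.25% of all genes tested reached that p and were lower. Those that reached it and were higher were 0 members and 4.66% of all genes tested. The libraries of the ages did not overlap for 2 members, or 4.35%, beside 12.2% of all genes tested. They were Sec13, with old below young as in 3.42% of genes, and Tmed5, with old above young as in 8.78%. For the other 44 members the libraries of the ages overlapped. Of the 46 log2 changes, old minus young on log2(FPKM + 1), 21 were positive and 25 negative, which is 45.7% positive beside 61.3% over all genes tested and 51.4% over the 2835 tested genes with a mean of at least 20 FPKM. The median change of the members was -0.017, that of all genes 0.23, and that of the genes of at least 20 FPKM 0.018. After quantile normalization, which moved the median of all genes to -0.010, 26 of 46 changes were positive (56.5%), beside 49.4% of all genes. After median-ratio scaling 19 were positive (41.3%), beside 57.0% of all genes. Without old replicate 3 there were 31 positive changes, with a member median of 0.13. All genes then had 57.9% positive changes and a median of 0.16.

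The intervals show what these libraries could resolve. The median 95% interval reached 1.03 to either side on the log2 scale for members, against 1.87 for all genes tested. The whole interval lay within 1 log2 unit of 0 for 6 members, so for the other 40 a change of more than that in at least 1 direction was compatible with the values. Estimates beyond 1 log2 unit came from 5 members.

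**Figure D2:**
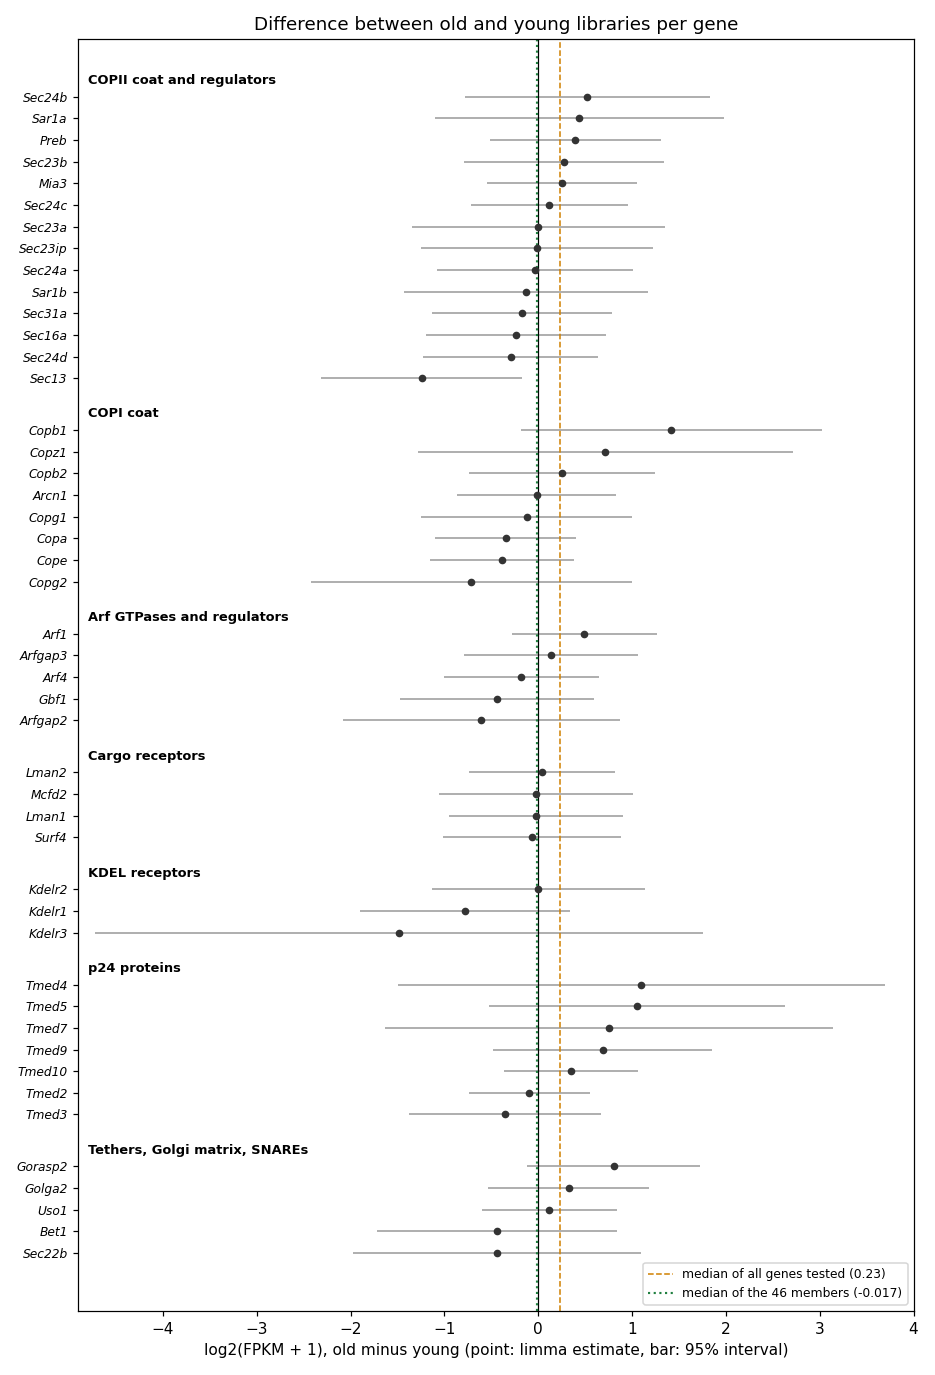
Old-minus-young difference in log2(FPKM + 1) per gene (point) with its limma 95% interval (bar), grouped by role, and the medians of the members (-0.017) and of all genes tested (0.23). The interval of Sec13 is the one that leaves out 0, before adjustment over all genes.

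The libraries differed in depth and in markers of other cells. From the steps of low FPKM values about 27.0 M to 27.4 M reads stood behind the old libraries and 22.4 M to 25.5 M behind the young ones, with young replicate 3 the shallowest. Young replicate 3 had the fewest genes above 0, 8934, and old replicate 3 the most, 12049. The 12 plasma cell marker genes, Jchain included, were in the table, 1 with a positive and 11 with a negative log2 change, and summed to 9438 FPKM in old replicate 3 and to 20891 to 24118 FPKM in the other 5 libraries. Jchain made up most of that sum, at 7514 FPKM in old replicate 3 and 16937 to 19793 FPKM in the other 5. Of 9 marker lists of other cells, 5 were highest in old replicate 3. Summed FPKM over the list were 210.3 to 733 in old and 87.3 to 349 in young libraries for monocytes, and 46.8 to 848 in old and 0.336 to 296 in young libraries for erythroid cells. They were 265 to 1342 in old and 439.6 to 570.3 in young libraries for neutrophils, and 129 to 277 in old and 179.8 to 257 in young libraries for B cells. Cd79b made up most of the B cell sum. Each old library was above each young one for Elane and Ctsg (neutrophils), Lyz2 (monocytes) and Ms4a1 (B cells), as in 8.78% of all genes tested. For Pax5 (B cells) each was below, as in 3.42%. No marker in the table was at 0 in all 6 libraries, but some were there as traces only. Lepr was at 0.106 FPKM in old replicate 2 and at 0 otherwise. Some listed markers, such as Klk1 and Kdr, had no row. In bulk samples fewer cells of a type and less RNA per cell cannot be told apart, and the part of these cells in the values of the transport genes was not tested.

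Among the 14 COPII genes Sec13 was the one whose old libraries were all below the young ones. Log2 changes were positive for 6 and negative for 8 of them, and their median was -0.0081. Without old replicate 3, 11 were positive and the median was 0.10. Without young replicate 3, 8 were positive and the median was 0.24. Sec13 encodes an outer coat protein that also serves in the nuclear pore and in nutrient signalling (chromosome 6, 113728062 to 113740743, on the minus strand of GRCm38). Its level was 16.8, 61.3 and 40.04 FPKM in old replicates 1 to 3 and 65.2, 101 and 88.1 FPKM in young replicates 1 to 3. Each old library was below each young library, though old replicate 2 lay within 4 FPKM of young replicate 1. The log2 change was -1.24 ± 0.48 (SE), with a limma adjusted p = 0.827. Without old replicate 1, the lowest library, it was -0.74. The unadjusted p stayed under 0.05 without old replicate 2 and without young replicate 1, and was above 0.05 when any of the other 4 libraries was left out.

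Sec31a, the partner of Sec13 in the outer coat, did not share that order. It was at 46.8, 37.7 and 23.5 FPKM in old libraries and at 44.6, 27.4 and 49.2 FPKM in young ones, a log2 change of -0.17 ± 0.43 (SE; limma adjusted p = 0.961). Preb, which encodes the exchange factor SEC12, was at 48.9, 43.9 and 28.7 FPKM in old and 38.4, 24.4 and 28.2 FPKM in young libraries (log2 change 0.40 ± 0.41, SE; limma adjusted p = 0.869). More than 10% of its annotated exon bases overlap an antisense neighbour, as in Arfgap2, Copg2, Arf4 and Gorasp2, and the use of strand in counting is not given in the sources used here. Mia3 encodes TANGO1, the ER exit site protein that packs large cargo such as collagen. It was tight in young libraries, at 61.1, 58.8 and 62.9 FPKM, while old libraries ran from 104 in replicate 1 over 73.3 to 51.2 in replicate 3 (log2 change 0.26 ± 0.36, SE; adjusted p = 0.910). Sec16a, a scaffold of exit sites, was 35.7 ± 14.6 FPKM in old and 40.1 ± 6.13 FPKM in young libraries (SD, n = 3 each).

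Of the inner coat, the cargo-binding SEC24 family was led by Sec24c in all old libraries and in young replicate 3, and by Sec24d in young replicates 1 and 2. Sec24c took 41.1% to 53.0% of the summed FPKM of the 4 Sec24 genes in old and 35.4% to 57.1% in young libraries. Sec24d took 24.6% to 30.8% in old and 20.004% to 44.6% in young libraries, and Sec24a 14.6% to 15.0% in old and 13.2% to 18.5% in young libraries. Sec24b, the least abundant, took 7.89% to 13.1% in old and 4.43% to 10.7% in young libraries. Sec24d itself was at 50.01, 38.9 and 27.8 FPKM in old and 48.2, 65.1 and 32.2 FPKM in young libraries (log2 change -0.29 ± 0.42, SE; limma adjusted p = 0.914). Sec24b was at 21.2, 15.3 and 8.95 FPKM in old against 12.8, 9.91 and 7.12 FPKM in young libraries, with old replicate 3 inside the young range (0.52 ± 0.59; adjusted p = 0.879).

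The 2 SEC23 genes, whose protein activates the SAR1 GTPase, had nearly equal group means, while their ratio varied between libraries. Sec23a was 0.427, 1.3985 and 1.27 times Sec23b in old replicates 1 to 3 and 0.877, 0.907 and 1.745 times in young replicates 1 to 3. Sec23b was at 25.0, 25.96 and 15.1 FPKM in old and 18.9, 13.4 and 21.3 FPKM in young libraries (log2 change 0.27 ± 0.48, SE; limma adjusted p = 0.926). Sec23a was 22.1 ± 13.1 FPKM in old and 21.95 ± 13.3 FPKM in young libraries (SD, n = 3 each), and it ranged from 10.7 to 36.3 within old and from 12.2 to 37.1 within young libraries. Sec23ip, which encodes a SEC23-binding phospholipase-like protein, was 15.1 ± 3.23 FPKM in old and 16.3 ± 7.33 FPKM in young libraries.

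The SAR1 genes differed more between libraries of one age than between ages. Sar1a was at 26.7, 98.4 and 31.7 FPKM in old replicates 1 to 3 and at 60.8, 48.3 and 10.9 FPKM in young replicates 1 to 3 (log2 change 0.44 ± 0.69, SE; limma adjusted p = 0.919). Sar1b was at 76.4, 32.9 and 33.9 FPKM in old and at 62.4, 19.7 and 90.8 FPKM in young replicates. Sar1b was 2.86 times Sar1a in old replicate 1 and 0.334 times in old replicate 2, and in young replicate 3 it was 8.32 times Sar1a. Their sum ranged from 65.6 to 131 FPKM in old and from 67.9 to 123 FPKM in young libraries.

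The COPI coat had 3 positive and 5 negative log2 changes among 8 members, with a median of -0.07. Without young replicate 3 there were 2 positive and 6 negative changes and the median was -0.36. Without young replicate 2, 5 were positive and the median was 0.11. Copb1, the beta subunit gene (chromosome 7, 114215559 to 114254711, minus strand), was at 30.8, 36.3 and 21.2 FPKM in old and at 25.7, 13.3 and 2.61 FPKM in young libraries. Young replicate 1 lay inside the old range, and young replicate 3 was far below the rest. The log2 change was 1.42 ± 0.72 (SE), the largest positive one among members, with a limma adjusted p = 0.839. Without young replicate 3 it was 0.60.

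The subunits assemble into one complex, and the other coatomer genes had changes of either sign. Copa, the alpha subunit gene, was at 59.2, 49.0 and 50.6 FPKM in old and 78.8, 52.9 and 73.6 FPKM in young libraries (log2 change -0.35 ± 0.34, SE; limma adjusted p = 0.854). Cope, the epsilon subunit gene, was at 61.1, 79.1 and 46.4 FPKM in old against 71.4, 95.3 and 74.8 FPKM in young libraries (-0.39 ± 0.34; adjusted p = 0.854). Arcn1, the delta subunit gene, was the steadiest member, with a highest value 1.41 times its lowest over the 6 libraries. It was 36.1 ± 6.07 FPKM in old and 36.5 ± 5.67 FPKM in young libraries (SD, n = 3 each). Copz1, the zeta subunit gene, was at 77.2, 64.5 and 42.0 FPKM in old libraries, while young libraries held its highest and its lowest value, 123 FPKM in replicate 2 and 5.43 FPKM in replicate 3. The log2 change of Copz1 was 0.72 ± 0.90 (SE), though its mean was 61.3 FPKM in old and 63.4 FPKM in young libraries. Copb2, the beta-prime subunit gene, was 61.1 ± 21.97 FPKM in old and 51.4 ± 22.2 FPKM in young libraries. The gamma subunit has 2 genes, and Copg1 took 61.1% to 93.5% of their sum in old and 46.4% to 88.7% in young libraries.

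Among the ARF GTPases and their regulators, 2 of 5 had a positive log2 change. Arf1, which recruits coatomer, was at 205, 325 and 226 FPKM in old and at 145, 270.1 and 138 FPKM in young libraries. Young replicate 2 lay inside the old range, and the log2 change was 0.49 ± 0.35 (SE; limma adjusted p = 0.854). Arf4, which shares early Golgi functions with ARF1, was at 79.1, 57.1 and 48.9 FPKM in old and 51.5, 67.1 and 93.3 FPKM in young libraries (-0.18 ± 0.37; adjusted p = 0.945). Gbf1, the exchange factor gene, was at 22.02, 17.0 and 19.5 FPKM in old against 31.8, 34.8 and 17.0 FPKM in young libraries (-0.44 ± 0.47; adjusted p = 0.872).

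The 2 ARF GTPase-activating proteins switch ARF1 off, and Arfgap3 was the more abundant in all 6 libraries. Arfgap2 was at 18.1, 11.8 and 8.61 FPKM in old and at 25.0, 38.0 and 7.21 FPKM in young libraries (log2 change -0.61 ± 0.66, SE; limma adjusted p = 0.875). Its change was -0.14 without young replicate 2 and -1.26 without young replicate 3. Arfgap3 was 81.4 ± 19.7 FPKM in old and 77.8 ± 32.8 FPKM in young libraries (SD, n = 3 each). Arfgap3 was 5.45, 7.23 and 6.97 times Arfgap2 in old libraries and 4.20, 2.29 and 5.75 times in young ones, so that old replicate 1 lay below young replicate 3. On log2(FPKM + 1), where the added 1 FPKM sets old replicate 1 above young replicate 3 by 2.38 to 2.37, the ratio differed by 0.74 between old and young. The exact permutation p = 0.1 (two-sided) was then the lowest value that 3 libraries against 3 can reach, with an adjusted p = 0.857 over the 10 ratios compared. With 0.1 FPKM added in place of 1 the ages overlapped and the exact permutation p = 0.2. The exact permutation p of the other 9 ratios was 0.3 to 0.9 with 1 FPKM added.

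**Figure D3:**
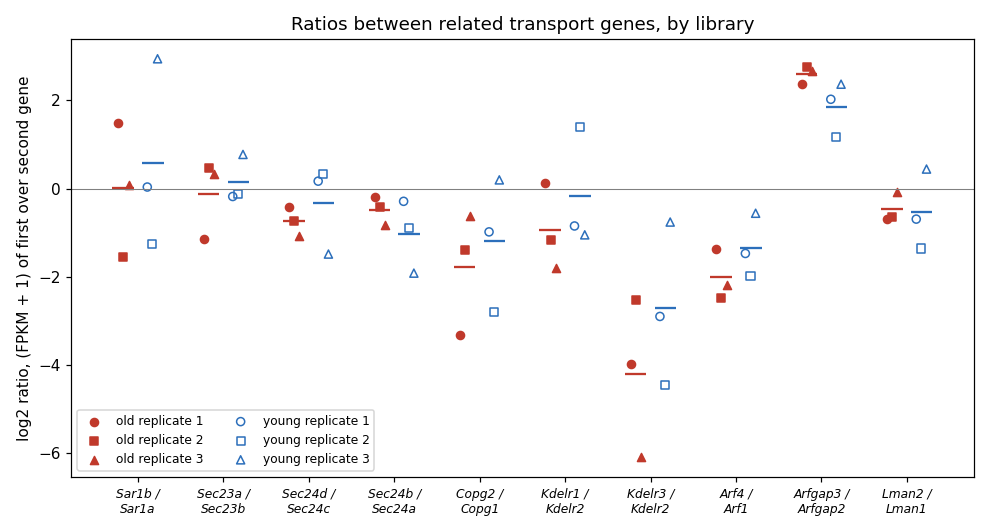
Log2 ratio of (FPKM + 1) for 10 pairs of related transport genes, with one point per library, old (filled) left of young (open), and a line at each group mean. Arfgap3 was above Arfgap2 in all 6 libraries, and Sar1b over Sar1a ranged from -1.55 to 2.95.

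The cargo receptors had the smallest differences between ages of the 7 roles, with log2 changes from -0.07 to 0.04 over all 6 libraries. Their median was -0.30 without old replicate 2 and 0.25 without old replicate 3. Lman1 encodes ERGIC-53, a lectin that carries glycoproteins to the Golgi and that also takes part in the assembly of IgM. It was at 112, 165 and 69.9 FPKM in old and at 128, 153 and 69.6 FPKM in young libraries (log2 change -0.03 ± 0.42, SE; limma adjusted p = 0.995). Each age held a library near 70 FPKM and one above 150. Mcfd2, its cofactor, was 31.8 ± 11.8 FPKM in old and 32.0 ± 11.05 FPKM in young libraries (SD, n = 3 each). Lman2, the lectin VIP36, was at 68.9, 105 and 66.3 FPKM in old against 79.0, 59.0 and 95.04 FPKM in young libraries (0.04 ± 0.35; adjusted p = 0.993; 95% interval -0.74 to 0.82). Surf4, a receptor for soluble cargo, was at 63.6, 98.5 and 42.0 FPKM in old and 82.9, 43.6 and 84.1 FPKM in young libraries (-0.07 ± 0.43; adjusted p = 0.989; 95% interval -1.02 to 0.88). These intervals still allow differences of about 1 log2 unit for Surf4 and less for Lman2.

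KDEL receptors bind the retrieval signal of ER chaperones in the Golgi and return them in COPI vesicles. Kdelr1 was at 57.8, 60.4 and 20.1 FPKM in old and at 47.6, 110.2 and 70.7 FPKM in young libraries (log2 change -0.78 ± 0.50, SE; limma adjusted p = 0.848). Without old replicate 3, the library of lowest plasma cell marker sum, its change was -0.28, and without young replicate 2 it was -0.48. Kdelr2 was at 53.0, 136 and 73.0 FPKM in old against 86.4, 41.1 and 147 FPKM in young libraries, a log2 change of 0.0023 ± 0.51 (adjusted p = 1.00). Kdelr2 was above Kdelr1 in 4 of the 6 libraries, old replicate 1 and young replicate 2 being the exceptions. Kdelr3, one of the 7 genes with the UPRE, was the most uneven member measured in every library, with a 1022-fold range. It was at 2.45, 22.9 and 0.0848 FPKM in old and at 10.7, 0.919 and 86.7 FPKM in young libraries (-1.49 ± 1.46; adjusted p = 0.856). About 3 reads lay behind its value in old replicate 3 and about 2736 behind that in young replicate 3, the library with the least depth. Without young replicate 3 its log2 change was -0.084, and without old replicate 3 it was -0.47.

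The p24 proteins travel in both kinds of vesicle as cargo adaptors. Their 7 genes had 5 positive log2 changes and a median of 0.69, beside 0.23 over all genes tested and 0.018 over those of at least 20 FPKM. Without young replicate 3 there were 4 positive changes and the median was 0.016, and without young replicate 2 it was 0.27. Tmed5 (chromosome 5, 108106366 to 108132620, minus strand), the least abundant member, was at 9.66, 13.4 and 13.3 FPKM in old and at 8.38, 7.87 and 1.96 FPKM in young libraries. Each old library was above each young one, as in 8.78% of all genes tested, and the log2 change was 1.05 ± 0.71 (SE; limma adjusted p = 0.851). Without young replicate 3 it was 0.51. Tmed9 was at 132, 121 and 147 FPKM in old and at 122, 146 and 30.8 FPKM in young libraries (0.69 ± 0.52; adjusted p = 0.854), and without young replicate 3 its log2 change was -0.0032. Tmed10, which pairs with TMED2, was at 166, 219 and 119 FPKM in old against 150.3, 114 and 121 FPKM in young libraries (0.35 ± 0.32; adjusted p = 0.854).

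Tmed4 and Tmed7 had their highest and lowest values in young libraries. Both count among the positive p24 changes. Tmed4 was at 29.6, 17.0 and 15.3 FPKM in old libraries, while it was at 30.7 and 27.8 FPKM in young replicates 1 and 2 and listed at 0 in young replicate 3. The log2 change of Tmed4 was 1.10 ± 1.16 (SE), with means of 20.6 FPKM in old and 19.5 FPKM in young libraries. Tmed7 was at 10.4 to 12.98 FPKM in old libraries, while it was at 15.2 and 24.2 FPKM in young replicates 1 and 3 and at 0.0847 FPKM, about 19 reads, in young replicate 2. The log2 change of Tmed7 was 0.75 ± 1.07 (SE), though its mean was lower in old, at 11.9 FPKM, than in young libraries, at 13.2 FPKM. Its exons overlap those of Ticam2 on the same strand, so reads may be shared. Tmed2 was 438 ± 129 FPKM in old and 459.6 ± 66.3 FPKM in young libraries, and Tmed3 25.7 ± 6.04 FPKM in old and 34.5 ± 13.2 FPKM in young libraries (SD, n = 3 each). Tmed2 alone made up 47.2% to 59.3% of the summed p24 FPKM in old and 52.8% to 70.6% in young libraries. That sum was 722, 987 and 721 FPKM in old and 774, 751 and 758 FPKM in young libraries, so it was steadier than most of its parts.

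Tethers and SNAREs, which catch and fuse the vesicles at the Golgi, had 3 positive and 2 negative log2 changes, with a median of 0.12. Without young replicate 3 there were 2 positive changes and the median was -0.037. Without old replicate 3 there were 4 and it was 0.29. Gorasp2, the Golgi stacking protein GRASP55 (chromosome 2, 70661576 to 70712636, plus strand), was at 67.5, 54.6 and 42.0 FPKM in old and at 30.4, 43.7 and 21.1 FPKM in young libraries. Young replicate 2 exceeded old replicate 3 by less than 2 FPKM, and the other libraries separated by age. The log2 change was 0.80 ± 0.41 (SE; limma adjusted p = 0.841), and it ranged from 0.55 to 1.06 without single libraries. Golga2, the matrix protein GM130 that GRASP proteins bind, was at 43.4, 55.7 and 47.3 FPKM in old against 33.9, 30.4 and 55.2 FPKM in young libraries (0.33 ± 0.39; adjusted p = 0.884). Uso1, the tether p115, was 137 ± 28.5 FPKM in old and 127 ± 32.5 FPKM in young libraries (SD, n = 3 each). The SNARE gene Bet1 was at 7.10, 21.8 and 29.1 FPKM in old and 27.6, 20.7 and 21.4 FPKM in young libraries (-0.44 ± 0.57; adjusted p = 0.899). Sec22b, another SNARE gene, was at 23.3, 33.2 and 9.91 FPKM in old against 13.9, 75.7 and 18.9 FPKM in young libraries.

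The scatter of the members differed between libraries. Young replicate 3 had the lowest value for 18 of the 46 genes and the highest for 11, and old replicate 3 the lowest for 11 and the highest for 2. The median deviation of members from their own means was -0.28 (log2) in old replicate 3 and between -0.058 and 0.22 in the other 5 libraries. Genes of at least 20 FPKM had median deviations of -0.0032 to 0.081, with 0.053 in old replicate 3. The SD of the deviations was largest in young replicate 3, at 1.17, and 0.39 to 0.83 elsewhere. Genes of at least 20 FPKM had an SD of 1.25 in young replicate 3 and 0.59 to 0.97 elsewhere. The coefficient of variation within a group had a median of 28.8% over members in old and 36.2% in young libraries. Over the genes of at least 20 FPKM it was 30.1% in old and 40.02% in young libraries.

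**Figure D4:**
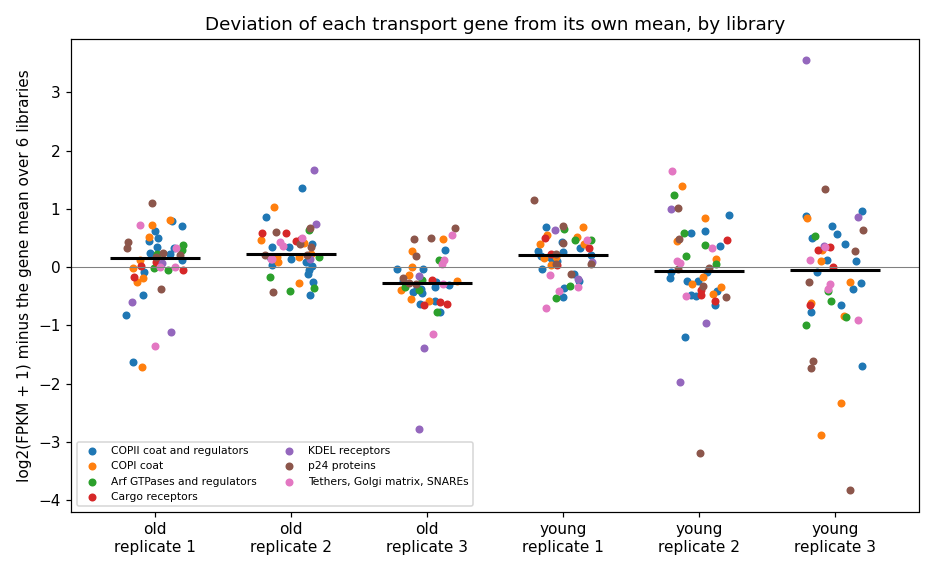
Deviation of each of the 46 genes from its own mean over 6 libraries, in log2(FPKM + 1), by library and coloured by role, with a black line at the library's median. The median is -0.28 in old replicate 3, and the spread is widest in young replicate 3 (SD 1.17).

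The reads behind a value differed widely between members. Taking merged exon lengths, 34 of 46 genes had about 1000 reads or more in every library, and 3 genes, Kdelr3, Tmed4 and Tmed7, had fewer than 100 in at least 1 library. Copz1, for example, rested on about 445 reads in young replicate 3 and about 11521 in young replicate 2. Such reads were amplified from 5 ng of RNA and are not independent molecules, so they cover counting error only. Over the 6 libraries the highest value was less than 2 times the lowest for 10 members, among them Arcn1, Copa, Uso1, Tmed2 and Lman2. It was more than 10 times the lowest, or the lowest was 0, for 5 members, namely Copb1, Copz1, Tmed7, Kdelr3 and Tmed4.

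The 7 genes with the UPRE did not share a direction between ages. Their log2 changes were 1.42 for Copb1, 0.49 for Arf1, 0.25 for Copb2, -0.0004 for Sec23a, -0.29 for Sec24d, -0.44 for Gbf1 and -1.49 for Kdelr3, with a median of -0.0004. The 34 other members with a promoter had a median of -0.019, 16 positive and 18 negative. Xbp1 itself was at 728, 915 and 414 FPKM in old and 924, 903 and 795 FPKM in young libraries (log2 change -0.42 ± 0.32, SE; limma adjusted p = 0.854).

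Of 7 measured regulators known to drive secretory genes, 2 had a positive and 5 a negative log2 change, and limma called 0. Creb3l1, whose product OASIS activates secretory genes in bone-forming cells, was at 6.32, 4.34 and 6.03 FPKM in old and at 0, 0.720 and 0 FPKM in young libraries (log2 change 2.44 ± 0.80, SE; limma adjusted p = 0.736). Each old library was above each young one at this low level. Prdm1 was at 106, 74.7 and 45.1 FPKM in old and 51.6, 142 and 154 FPKM in young libraries.

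Other genes of ER to Golgi transport, 56 tested of 60 listed, had 26 positive and 30 negative log2 changes with a median of -0.027. Limma called 0, and an unadjusted p under 0.05 was reached by 5 genes, 8.93% of the list beside 5.91% of all genes tested. Of the 5, 3 had positive changes and 2 negative ones. Over all genes tested, 4.66% reached that p with a positive change and 1.25% with a negative one. Golph3, a Golgi phosphoinositide reader, was at 62.1, 44.0 and 16.8 FPKM in old and at 8.10, 6.36 and 16.3 FPKM in young libraries (1.82 ± 0.61, SE; limma adjusted p = 0.736). The TRAPP tethering complex gave genes of both signs. Trappc12 was at 13.8, 12.0 and 13.9 FPKM in old and 35.5, 41.2 and 25.8 FPKM in young libraries (-1.28 ± 0.45; adjusted p = 0.746). Trappc6b was at 62.0, 38.7 and 25.5 FPKM in old against 1.93, 0.986 and 52.2 FPKM in young libraries, and Trappc1 at 16.9, 4.26 and 3.445 FPKM in old against 0.400, 2.57 and 0 FPKM in young libraries, both with an adjusted p = 0.839. Their young libraries included the values near 0.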

How the data were processed

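The authors deposited FPKM values, 1 column per library and no counts. Per the submitters' processing notes, bcl2fastq 2.17, STAR and DESeq2 were used with GRCm38 or mm10, in roles not stated. Per the labels' protocols, libraries came from 5 ng of RNA with a stranded template-switching kit. Counter, annotation and strand setting are not given in the sources used here. Reads were estimated from the steps of low values with GENCODE M21 merged exon lengths (99.9% of identifiers matched), and 74.5% to 87.5% of low ratios between libraries were ratios of whole numbers up to 10 within 0.1%.

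Log2(FPKM + 1), a scale that understates changes of low genes, was tested two-sided with limma 3.58.1 (mean-variance trend, R 4.3.3) over 10687 genes with a mean of at least 1 FPKM, with Benjamini-Hochberg adjustment over all of them and a threshold of 0.05. The 46 members passed the filter. Ratios were compared by exact permutation tests (scipy 1.17.1). The limma step was tested on simulated data. In each of 7 roles the 3 members of smallest p, and 13 fixed genes, are given in full. The members and lists were chosen with earlier results of these data known, and so were the promoter motifs. Promoters are RefSeq's on GRCm38.p6. Alternatives were another pseudocount, filters, scalings, weights, moderation, a replicate block and leaving out each library.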

Additional observations from a re-analysis of the deposited data

How the results depend on the processing

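Limma called 0 members under each of the 14 alternatives, and the lowest adjusted p of any member was 0.496. Over all genes it called 1 after quantile normalization and 1 with array weights, in both a gene outside the members, and 0 otherwise. The number of members with an unadjusted p under 0.05, 1 as reported, was 0 with array weights, 0 without a mean-variance trend, 2 with the replicate block and 0 to 2 without single libraries. The block added Copb1 to Sec13. Replicate numbers were taken as names of libraries only. Same-numbered old and young libraries had correlations of deviations of -0.0344, 0.0203 and -0.00412, beside -0.0425 to 0.0495 for other pairings. Only old replicate 2 correlated best with its own number. These values cannot tell whether same-numbered libraries were prepared together. The replicate block left 0 genes called. The number of positive changes ranged from 20 to 31 without single libraries, highest without old replicate 3, and the member median from -0.14 to 0.13.

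Of 27 genes given in full, 18 kept their direction under every alternative. The filters, the moderation and the replicate block leave a log2 change as it is, so only the other alternatives could turn a direction. Near-zero changes turned sign: Kdelr2 was -0.097 and Lman2 -0.059 after median-ratio scaling, Lman1 0.033 after quantile normalization and 0.044 with array weights, and Surf4 0.17 with array weights. Without single libraries log2 changes ran from -0.82 to 0.12 for Bet1, -0.48 to 0.43 for Kdelr2, -0.17 to 0.20 for Lman2, -0.30 to 0.89 for Sar1a and -0.36 to 0.29 for Lman1. They ran from -0.42 to 0.098 for Sec31a, -0.38 to 0.23 for Surf4, -0.38 to 0.038 for Arf4 and -0.0032 to 1.10 for Tmed9. Old-minus-young log2 ratios ran from -1.48 to 0.62 for Sar1b/Sar1a, -0.57 to 0.24 for Sec23a/Sec23b, -1.39 to 0.19 for Copg2/Copg1 and -0.35 to 0.56 for Lman2/Lman1. The causes were not tested. With 3 libraries per age and scattered values, changes under about 1 log2 unit were not resolvable for most members. Larger estimates among the members were not called either.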
